A study of Bos taurus with 24 samples.

Results

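Of all messages measured, 30 rows of the deposited table are the subject here. They were chosen for a larger share of the measured messenger RNA at metaphase II than at the germinal vesicle stage. A row was a member when the mean of the 12 MII libraries was at least 5 FPKM and at least 3 times the mean of the 12 GV libraries. FPKM are fragment numbers scaled by exon length and by the mapped fragments of the library. Of the 11306 rows, 35 passed both thresholds (0.367% of the 9526 rows over 0.1 FPKM in at least 1 library), and 5 of them (CDC5L, FBXO5, RAB21, RAB27A and TRIM59) were left out because their symbols belong to families treated apart, which leaves 30. The members were chosen by their MII and GV values, so the size of the difference between the stages is given below as a description and was not tested. The tests concern the season, whose contrast did not enter the rule. They use the same values as the rule, however. With the spring libraries alone 28 of the 30 members met the rule, and with the summer libraries alone 19. A member that passed mainly through 1 season brings a season difference with it, so the season results are not independent of the choice.

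The study compared bovine oocytes collected in May (spring) and in July (summer) by ultrasound-guided aspiration of follicles, to examine the effect of summer heat. The 4 groups were GV oocytes of May, GV oocytes of July, MII oocytes of May and MII oocytes of July, with 6 libraries each and 24 in all, and no further treatment or allele was given. All donors were non-lactating, non-pregnant, Angus-based crossbred beef cows on pasture, aged between 3 and 6 years, and per the methods each library held a pool of 4 denuded oocytes of 1 animal. MII oocytes had matured in vitro with FSH and serum, so MII here stands for oocytes matured outside the follicle. Per the paper, nuclear maturation was scored by DAPI in the immunostained oocytes. No such check is described for the sequenced pools, so an MII pool may hold immature oocytes. Cumulus cells were stripped before freezing at both stages.

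The GV oocyte is arrested in the first meiotic prophase with its nucleus intact and a large store of messenger RNA. During maturation the nuclear envelope breaks down, the first polar body is extruded and the oocyte arrests again at metaphase of the second division, while transcription is nearly silent. Stored messages are then translated, adenylated, deadenylated or degraded in an ordered way, and cytoplasmic regulation of these messages carries the oocyte through both divisions and into the embryo.

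All libraries summed to the same total, 86768.1 to 86768.2 FPKM, and the lowest value in the table was 0.01. A value is therefore a share of the table, and a rise of a message cannot be told apart from a smaller amount of all other RNA per oocyte. The share concerns the messages that the kit captured and amplified. Neither the capture of single messages nor the length of their tails was measured. The table holds no counts, and the relative depth was read from the steps between low values. Taking spring GV replicate 1 as 1, spring GV replicate 6 stood at 0.0567, spring MII replicate 6 at 0.149 and summer GV replicate 2 at 0.394, while the other 21 libraries lay between 0.542 and 6.53. These 3 shallow libraries stood apart in many results, and values without them are given where they matter. Oocyte markers were measured as 14 genes, none of them at or under 0.1 throughout a group, with a summed level of 877 to 2265 FPKM over the GV libraries and 1449 to 1852 FPKM over the MII libraries. Cumulus and granulosa cell markers were measured as 22 genes, of which CYP19A1, FSHR, AREG, CD44 and NRP1 were at or under 0.1 in every library. Their summed level was 38.9 to 590.0 FPKM in spring GV, 34.7 to 127 in summer GV, 35.7 to 167 in spring MII and 27.7 to 86.9 in summer MII oocytes. In each of the first 3 groups the highest sum belonged to the shallow library, and its largest parts were KRT18, KRT8 and STAR. Of 7 blood and immune cell markers, PTPRC and LAPTM5 were at or under 0.1 in every library, while HBA had group medians of 3.95 to 4.98 FPKM. The highest sum of the 7 was 148 FPKM in spring GV replicate 3, where the group medians of the sum lay between 4.31 and 6.12.

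At MII the members without NUP54, which is treated on its own below, summed to 1345 ± 115 FPKM (SD, n = 6) in spring and 1434 ± 142 in summer, or 1.55% and 1.65% of the table. At the GV stage they summed to 377 ± 131 FPKM in spring and 452 ± 74.8 in summer, or 0.434% and 0.521%. The lowest MII sum was 1175 FPKM and the highest GV sum 567. Among the 1363 rows with an MII mean of at least 5, the 35 rows at a ratio of 3 or more were 2.57%. In the opposite direction 451 rows with a GV mean of at least 5 fell at least as far. The median ratio of the members was 3.32, which is 1.73 on the log2 scale, where the median of the 9526 genes over 0.1 FPKM in at least 1 library was -0.37 and that of the 1363 rows 0.41. In 8 members (TMEM128, HMMR, SFT2D1, TBPL1, BCAR4, HMGB2, KIF23 and TECTB) all 12 MII values lay above all 12 GV values, a separation also seen in 0.955% of the 9526 genes. The rule itself favours such a separation.

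**Figure D1:**
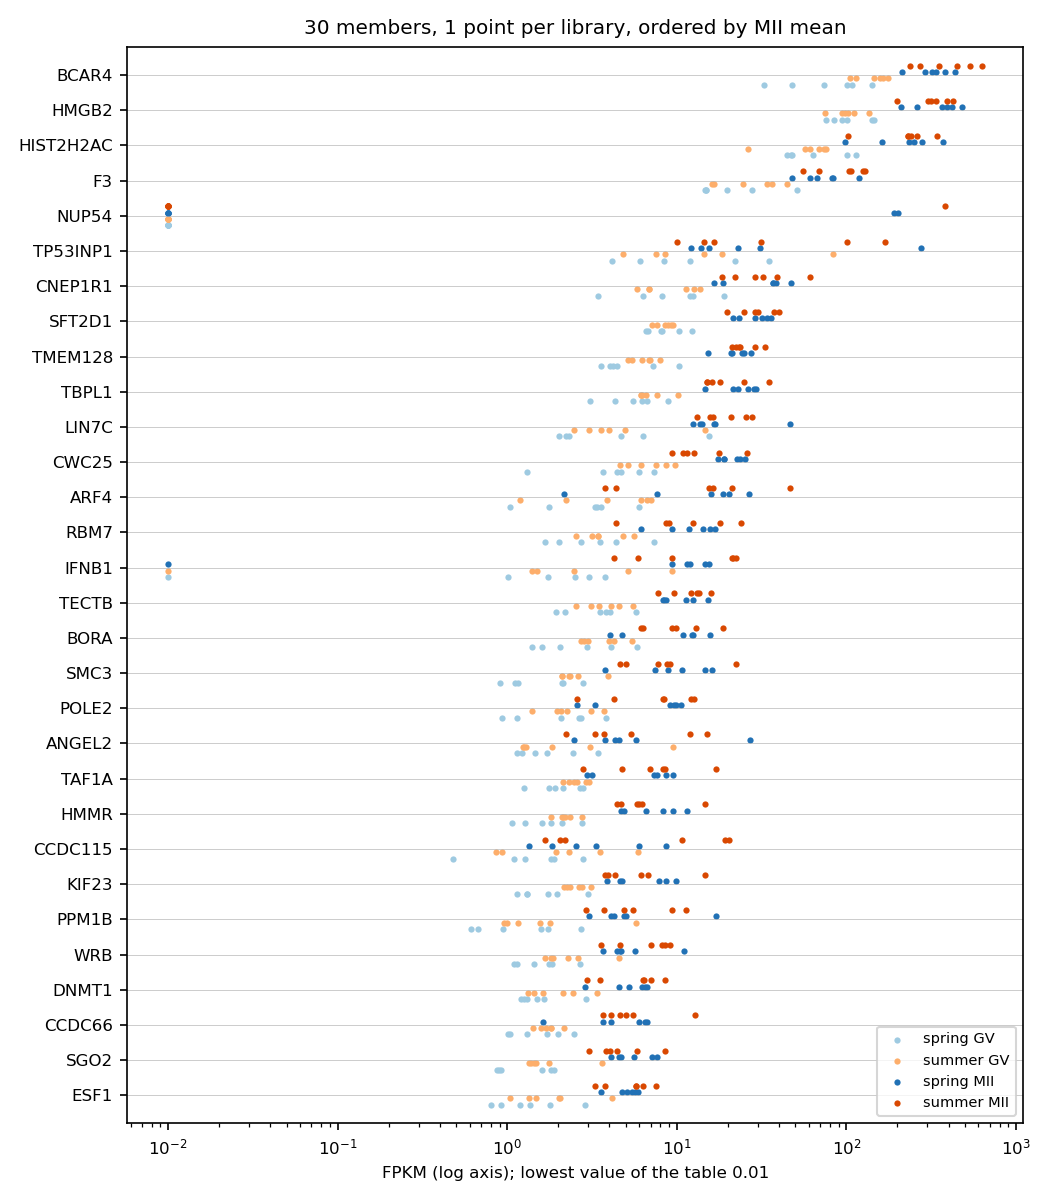
FPKM of the 30 members on a log axis, 1 point per library, with GV oocytes in light and MII oocytes in dark colours (blue for spring, orange for summer). Members are ordered by their MII mean, from BCAR4 at 372 FPKM to ESF1 at 5.24, and the NUP54 row lies at 0.01 in all but 3 MII libraries.

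Several members act on chromosomes and on the spindle. SMC3 (chromosome 26, 31387437 to 31425088 on UMD3.1.1, as are all positions here) encodes a core subunit of cohesin, the ring that holds sister chromatids together. In GV oocytes SMC3 lay between 0.908 and 2.79 FPKM (median 1.62) in spring and 2.10 and 3.91 FPKM (median 2.33) in summer. At MII it lay between 3.77 and 16.1 FPKM (median 9.77) in spring and 4.600 and 22.3 FPKM (median 8.22) in summer. Within each season the stages did not overlap, and the ratio of the means was 6.06 in spring and 3.73 in summer, the widest spring ratio among the members with GV values above the lowest of the table. SGO2, shugoshin 2, which protects centromeric cohesin through the first meiotic division, averaged 1.33 ± 0.487 and 1.84 ± 0.890 FPKM in spring and summer GV oocytes (mean ± SD, n = 6 in each group here and below). At MII its averages were 5.63 ± 1.46 and 4.94 ± 1.99. KIF23, the kinesin of the centralspindlin complex that forms the midzone at cytokinesis, ran from 1.14 to 2.97 FPKM (median 1.53) in spring GV and from 2.16 to 3.13 FPKM (median 2.49) in summer GV oocytes. It ran from 3.88 to 9.89 FPKM (median 6.30) at spring MII and from 3.77 to 14.6 FPKM (median 5.23) at summer MII, so that no MII library fell into the GV range.

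HMMR, a microtubule-binding protein that helps to assemble spindle poles, averaged 1.76 ± 0.607 FPKM in spring GV, 2.23 ± 0.311 in summer GV, 7.56 ± 2.68 in spring MII and 6.96 ± 3.81 in summer MII oocytes. Its 12 MII values also stood clear of its 12 GV values, with summer MII replicate 2 at 14.6 above the rest of its group. BORA, which helps Aurora A to activate the kinase PLK1 at entry into division, averaged 3.00 ± 1.72 and 3.70 ± 1.05 FPKM at GV and 10.01 ± 4.63 and 10.6 ± 4.77 at MII in spring and summer. The stages of BORA overlapped in spring, where 2 MII libraries were at 4.03 and 4.72 FPKM, but not in summer. CCDC66, a microtubule-associated protein of centrosomes and cilia, averaged 1.59 ± 0.577 and 1.75 ± 0.256 FPKM at GV, and 4.75 ± 1.98 and 5.96 ± 3.42 at MII. Its row overlaps FAM208A on the opposite strand by 1434 bp, and reads of both cannot be told apart without strand. In the list of spindle, kinetochore and chromosome segregation genes, 50 rows had an MII mean of at least 5, their median log2 ratio was 0.95, and 3 were members (SMC3, SGO2 and KIF23). In the list of meiotic kinases, phosphatases and anaphase-promoting complex genes, 1 of 25 such rows, BORA, was a member.

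Another set packages or copies DNA. HIST2H2AC, a replication-type histone H2A whose near-identical family copies could share reads and whose value is uncertain for that reason, lay between 44.9 and 115 FPKM (median 55.5) in spring GV and 26.2 and 76.0 FPKM (median 64.6) in summer GV oocytes. It lay between 98.4 and 370.2 FPKM (median 241) in spring MII and 102 and 343 FPKM (median 235.7) in summer MII oocytes. The summer stages were apart, while in spring the lowest MII library, the shallow replicate 6 at 98.4 FPKM, fell among the GV values. HMGB2, an abundant protein that bends DNA in chromatin, lay between 75.4 and 146 FPKM (median 97.3) in spring GV and 74.8 and 135 FPKM (median 100.5) in summer GV oocytes. At MII it lay between 209 and 482 FPKM (median 377) in spring and 198 and 424 FPKM (median 327) in summer. No MII library of either season was as low as the highest GV library, and the spring and summer ratios, 3.31 and 3.20, were close to each other.

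DNMT1, the methyltransferase that copies DNA methylation onto the new strand, averaged 1.64 ± 0.646 and 2.06 ± 0.780 FPKM in spring and summer GV oocytes and 5.34 ± 1.46 and 5.80 ± 2.13 at MII. Its overall ratio was 3.01, just inside the threshold. POLE2, a subunit of the replicative DNA polymerase epsilon, averaged 2.23 ± 1.08 and 2.42 ± 0.850 FPKM at GV and 7.501 ± 3.57 and 8.05 ± 4.04 at MII, and its lowest MII values of 2.58 in each season lay within the GV range. Of the chromatin, histone and DNA methylation list 3 of 38 rows with an MII mean of at least 5 were members, HIST2H2AC, HMGB2 and DNMT1, and the median log2 ratio of the 38 was 0.76. Of the DNA repair and replication list 1 of 21 was a member, POLE2, with a median of 0.68 over the 21. Over all genes above 0.1 FPKM in at least 1 library the medians were 0.082 (188 chromatin genes) and 0.20 (128 DNA repair genes).

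Further members work in transcription and RNA processing. TBPL1, a relative of the TATA-binding protein with roles in germ cells, lay between 3.06 and 8.81 FPKM (median 5.87) in spring GV and 6.15 and 10.1 FPKM (median 6.398) in summer GV oocytes, and between 14.6 and 29.5 FPKM (median 24.6) in spring MII and 14.99 and 35.1 FPKM (median 17.01) in summer MII oocytes. The stages of TBPL1 were fully apart. TAF1A, a subunit of the selectivity factor of RNA polymerase I, averaged 2.09 ± 0.574 and 2.57 ± 0.348 FPKM at GV and 6.51 ± 2.78 and 8.03 ± 4.87 at MII. CWC25, a spliceosome factor needed at the first catalytic step, lay between 1.31 and 7.34 FPKM (median 4.56) in spring GV and 4.59 and 9.80 FPKM (median 6.85) in summer GV oocytes. At MII it lay between 17.5 and 25.2 FPKM (median 20.8) in spring and 9.41 and 25.8 FPKM (median 12.1) in summer, and only in spring were the stages apart. RBM7, an RNA-binding subunit of the complex that directs nuclear RNA to the exosome, averaged 3.61 ± 2.07 and 3.83 ± 1.15 FPKM at GV and 12.3 ± 4.04 and 12.7 ± 7.08 at MII. Its row overlaps C15H11orf71 on the opposite strand by 47 bp, a gene that averaged 42.1 FPKM in GV and 3.89 in MII libraries.

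ESF1, a nucleolar factor of ribosomal RNA processing, averaged 1.49 ± 0.766 and 2.003 ± 1.11 FPKM in spring and summer GV oocytes and 5.09 ± 0.852 and 5.40 ± 1.60 at MII. ANGEL2, a phosphatase of the 2',3'-cyclic ends of RNA, averaged 1.899 ± 0.885 and 3.02 ± 3.22 FPKM at GV and 7.99 ± 9.41 and 6.94 ± 5.29 at MII. The large spring MII spread of ANGEL2 came from 1 library, since replicate 6 was at 27.1 FPKM and the median of the other 11 MII libraries was 4.33. Splicing and pre-mRNA processing had 2 members (CWC25 and RBM7) among 49 rows with an MII mean of at least 5, whose median log2 ratio was 0.51. Transcription factors and the RNA polymerase II machinery had 3 members among 43 rows (median 0.33), of which TAF1A serves polymerase I and TP53INP1 matched the list by the first letters of its symbol alone.

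Members of the membrane system formed a set of their own. ARF4, a small GTPase that recruits coats to Golgi membranes, lay between 1.04 and 5.98 FPKM (median 3.33) in spring GV and 1.19 and 7.07 FPKM (median 5.003) in summer GV oocytes. At MII it lay between 2.15 and 26.6 FPKM (median 17.4) in spring and 3.78 and 46.2 FPKM (median 15.9) in summer. The MII values of ARF4 spread widely and the stages overlapped in both seasons, with the shallow spring MII replicate 6 lowest of all MII libraries at 2.15 FPKM. SFT2D1, a membrane protein related to a yeast factor of traffic from endosomes to the Golgi, spread less, at 6.53 to 12.2 FPKM (median 8.08) in spring GV, 7.16 to 9.50 FPKM (median 8.65) in summer GV, 21.4 to 36.1 FPKM (median 30.5) in spring MII and 19.9 to 39.8 FPKM (median 29.4) in summer MII oocytes. TMEM128, a transmembrane protein whose function is little known, stood at 3.58 to 10.2 FPKM (median 4.34) and 5.17 to 7.98 FPKM (median 6.56) in GV oocytes and 15.4 to 27.4 FPKM (median 22.7) and 21.3 to 32.9 FPKM (median 23.5) in MII oocytes of spring and summer. Both genes kept their stages apart in all 24 libraries, and the TMEM128 ratio was 3.96 in spring and 3.95 in summer. The whole TMEM128 row lies inside ACOX3 on the opposite strand, which averaged 0.01 FPKM at both stages.

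CNEP1R1, the regulatory partner of a nuclear envelope phosphatase that acts on lipin, averaged 10.2 ± 5.47 and 9.53 ± 3.405 FPKM in spring and summer GV oocytes and 32.5 ± 12.1 and 33.5 ± 15.1 at MII. LIN7C, a PDZ scaffold of cell polarity and junctions, averaged 5.500 ± 5.15 and 5.43 ± 4.57 FPKM at GV and 20.1 ± 13.2 and 19.8 ± 5.84 at MII. All 3 shallow libraries were far above their groups for LIN7C, where the GV ones stood at 15.4 (spring) and 14.6 FPKM (summer) and the MII one at 46.7. CCDC115, which takes part in the assembly of the vacuolar proton pump, averaged 1.55 ± 0.798 and 2.57 ± 1.91 FPKM at GV and 3.95 ± 2.82 and 9.38 ± 8.79 at MII. The summer MII libraries of CCDC115 fell into 3 low ones, replicates 1 to 3 at 1.66 to 2.19 FPKM, and 3 high ones, replicates 4 to 6 at 10.7 to 20.4. Spring MII libraries split by the same numbers, with replicates 1 to 3 at 1.34 to 2.55 FPKM and 4 to 6 at 3.34 to 8.63. The ratio of its MII median to its GV median over both seasons was 1.60. WRB, a receptor for the insertion of tail-anchored proteins into the endoplasmic reticulum, completed this set. In the membrane traffic list 2 of 32 rows with an MII mean of at least 5 were members (ARF4 and SFT2D1), and the median log2 ratio of the 32 was 0.74.

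The remaining members are signalling, secreted and oocyte genes, and they include BCAR4, the member with the highest MII mean. BCAR4 (chromosome 25, 10576475 to 10584325), a gene with expression in the bovine oocyte and early embryo, lay between 32.4 and 141 FPKM (median 87.1) in spring GV and 105 and 176 FPKM (median 152) in summer GV oocytes. At MII it lay between 211 and 437 FPKM (median 329) in spring and 238 and 633 FPKM (median 402) in summer, and every MII library was above every GV library. F3, tissue factor, the cell-surface starter of blood coagulation, lay between 14.6 and 51.3 FPKM (median 17.4) in spring GV and 16.1 and 44.6 FPKM (median 29.4) in summer GV oocytes, and between 48.0 and 118 FPKM (median 74.7) in spring MII and 55.4 and 129 FPKM (median 105) in summer MII oocytes. The only spring GV library in the MII range of F3 was the shallow replicate 6, at 51.3 FPKM. IFNB1, a type I interferon with several close copies in the bovine genome that could share reads, lay between 0.01 and 3.74 FPKM (median 2.12) in spring GV and 0.01 and 9.42 FPKM (median 1.99) in summer GV oocytes. At MII it lay between 0.01 and 15.5 FPKM (median 11.7) in spring and 4.27 and 22.2 FPKM (median 15.2) in summer. IFNB1 was at the lowest value of the table in 3 libraries, which are the 3 shallow ones.

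PPM1B, a PP2C-type serine/threonine phosphatase, averaged 1.38 ± 0.803 and 2.03 ± 1.84 FPKM in spring and summer GV oocytes and 6.41 ± 5.28 and 6.29 ± 3.35 at MII. TP53INP1, a p53-induced protein of cell death and autophagy, lay between 4.14 and 35.1 FPKM (median 10.1) in spring GV and 4.81 and 83.8 FPKM (median 11.4) in summer GV oocytes, and between 12.1 and 277 FPKM (median 19.2) in spring MII and 9.99 and 169 FPKM (median 24.1) in summer MII oocytes. Its highest value was 16.7 times the median of the other 11 MII libraries, in the shallow spring MII replicate 6, and its highest GV value was in the shallow summer GV replicate 2. TECTB, which encodes beta-tectorin, a matrix protein with a zona pellucida domain, is the last member, and its MII values were apart from its GV values in every library. The other 8 functional lists had no member among their rows with an MII mean of at least 5. These were RNA decay (15 rows), cytoplasmic polyadenylation and translation (28), ubiquitin and SUMO enzymes (17), actin and adhesion (20), cyclic nucleotide and calcium signalling (9), fertilization and secretion (8), mitochondria (44) and chaperones and stress (43). Across the 16 functional lists 16 of the 30 members belonged to at least 1, and a list drawn up from symbols says nothing of the other 14.

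NUP54, a nucleoporin of the central channel of the nuclear pore, was a member through a row that behaved unlike all others. The symbol stands at 2 loci in the table, chromosome 29 (50654262 to 50656136) and chromosome 6 (92758059 to 92792505), and the member is the chromosome 29 row. This row was at 0.01 in all 12 GV libraries and in 9 MII libraries, and the 3 others listed it at 191 FPKM (spring replicate 2), 202 (spring replicate 5) and 381 (summer replicate 2). The chromosome 6 row was listed in exactly the other 21 libraries, at 1.42 to 6.02 FPKM in GV and 4.25 to 14.4 in MII oocytes. Of the 29 symbols at 2 loci, none had a value above the lowest at both loci in any library, over 696 pairs of symbol and library. A value at one locus thus came with no value at the other, and the NUP54 member reports which locus was listed as well as how much RNA was present. No ratio is given for it, since the GV libraries were listed at 0.01. The row is still included in the median ratio above and in the ratio counts over 30 members below. RAB21 and RAB27A, which were left out by name, were also symbols of this kind. A RefSeq gene table of the later assembly ARS-UCD2.0 held all 30 symbols as protein-coding genes, 28 directly and WRB and HIST2H2AC as synonyms, and 1 of them, NUP54, on another chromosome than the member row. In the nuclear pore and transport list this row was the only member among 15 rows with an MII mean of at least 5, whose median log2 ratio was 0.72.

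The size of the stage difference was compared between the seasons, again as a description. The ratio of means was at least 3 in 28 of 30 members in spring, against 4.56% of the 9526 genes, and in 19 of 30 in summer, against 1.44%. Both seasons reached 3 in 17 members. NUP54 is counted in each of these. The rule used the same values, so an excess of the members over all genes follows from it. The same holds for the separation of the stages given below. Without NUP54 the spring ratio ran from 2.54 for CCDC115 to 6.06 for SMC3, and the summer ratio from 2.10 for CWC25 to 4.22 for IFNB1. The ratio was higher in spring in 20 of 29 members. All 6 MII values lay above all 6 GV values in 15 members in spring, against 4.65% of genes, and in 14 in summer, against 3.07%. LIN7C (3.65 in both), TAF1A (3.11 and 3.12) and TMEM128 had nearly equal ratios in both seasons, whereas CWC25 (4.63 and 2.10), ANGEL2 (4.21 and 2.29) and TP53INP1 (4.26 and 2.49) were the members with the lowest summer ratios.

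**Figure D2:**
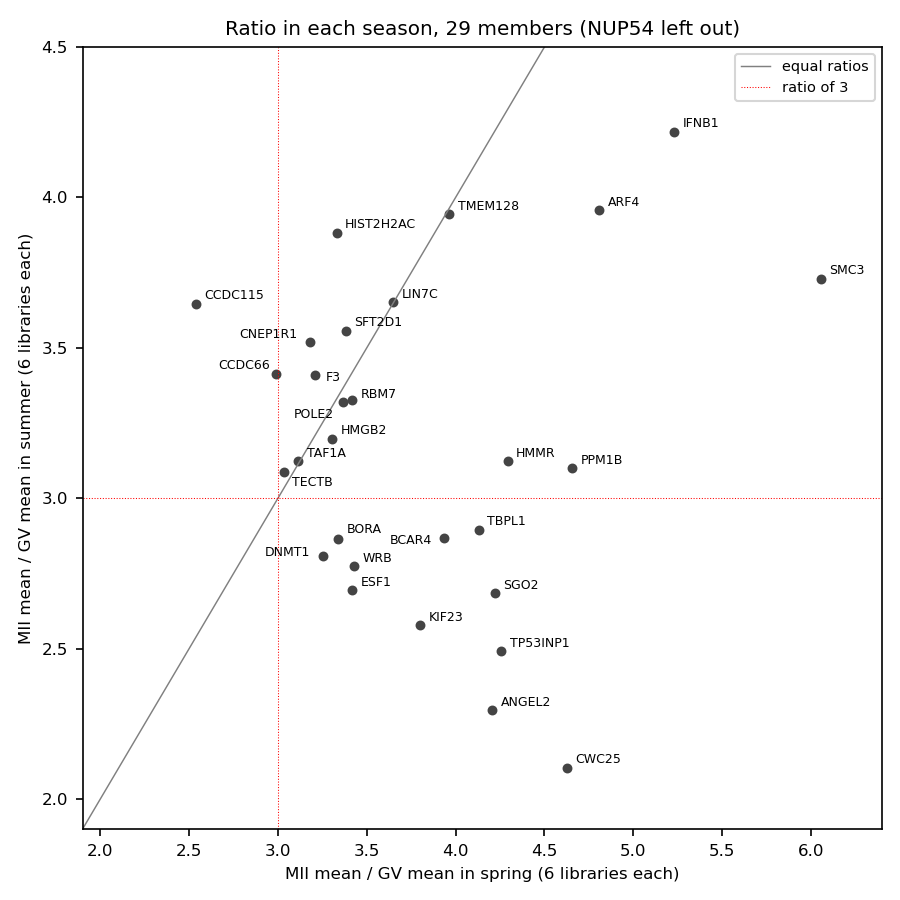
MII mean divided by GV mean in summer (vertical axis) against spring (horizontal axis), 1 point per member, 6 libraries per mean, NUP54 left out. Dotted lines mark the ratio of 3 and the grey line equal ratios; 20 of 29 points lie on the spring side of it, with CWC25 lowest at 2.10 in summer.

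Season was then tested within each stage, on log2(FPKM + 1) with limma over all 9526 genes, as a fold change on that scale understates the change of low genes. The call needed an unadjusted p below 0.05 together with more than a 2-fold difference. In GV oocytes no member was called, against 0.0315% of all genes. At an unadjusted p under 0.05 alone there were 2 members, BCAR4 and KIF23, against 1.55% of all genes. Both were higher in summer, a direction held with such a p by 1.21% of all genes, while 0 members and 0.346% of all genes were lower. With Benjamini-Hochberg adjustment over all genes there was none, as there was none among all genes (0%). BCAR4 was higher in summer by 0.91 (SE 0.33, 95% interval 0.19 to 1.63, limma p = 0.0167, adjusted p = 1, exact permutation p = 0.013, two-sided). Of its 6 summer GV libraries, all were above 105 FPKM, and 4 of the 6 spring libraries were below that, so that the seasons overlapped. The difference passed a fold of 2 without spring GV replicate 4 (1.02) and without the shallow spring GV replicate 6 (1.09). KIF23 was higher in summer by 0.40 (SE 0.18, 95% interval 0.011 to 0.80, limma p = 0.0447, adjusted p = 1, exact permutation p = 0.026, two-sided), and its limma p rose above 0.05 when any of several single libraries was left out, up to 0.0989 without spring GV replicate 1. SMC3 followed with 0.43 (SE 0.21, limma p = 0.062, adjusted p = 1, exact permutation p = 0.0628).

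The direction in GV oocytes was shared by most members. Summer was higher in 26 of 30, where it was higher in 55% of all genes (and lower in 45%) and in 64.6% of the rows with an MII mean of at least 5. The median difference of the members was 0.25, of all genes 0.012 and of those rows 0.11. Oocyte markers had a larger median in the same direction, 0.38 over 14 genes (1 higher in summer at an unadjusted p under 0.05), and the 17 cumulus and granulosa markers tested had a median of -0.26 (0 at such a p). Their part in the members' difference was not tested. Without the 3 shallow libraries 27 of 30 were higher in summer (52.6% of all genes), with quantile normalization 26 (50.2%) and with median-of-ratios scaling 24 (41%). The exceptions were HIST2H2AC (-0.17), HMGB2 (-0.036) and SFT2D1 (-0.0059), together with NUP54, which was at the lowest value throughout. No member had all 6 values of one season above all 6 of the other at either stage, against 0.178% of genes at each.

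**Figure D3:**
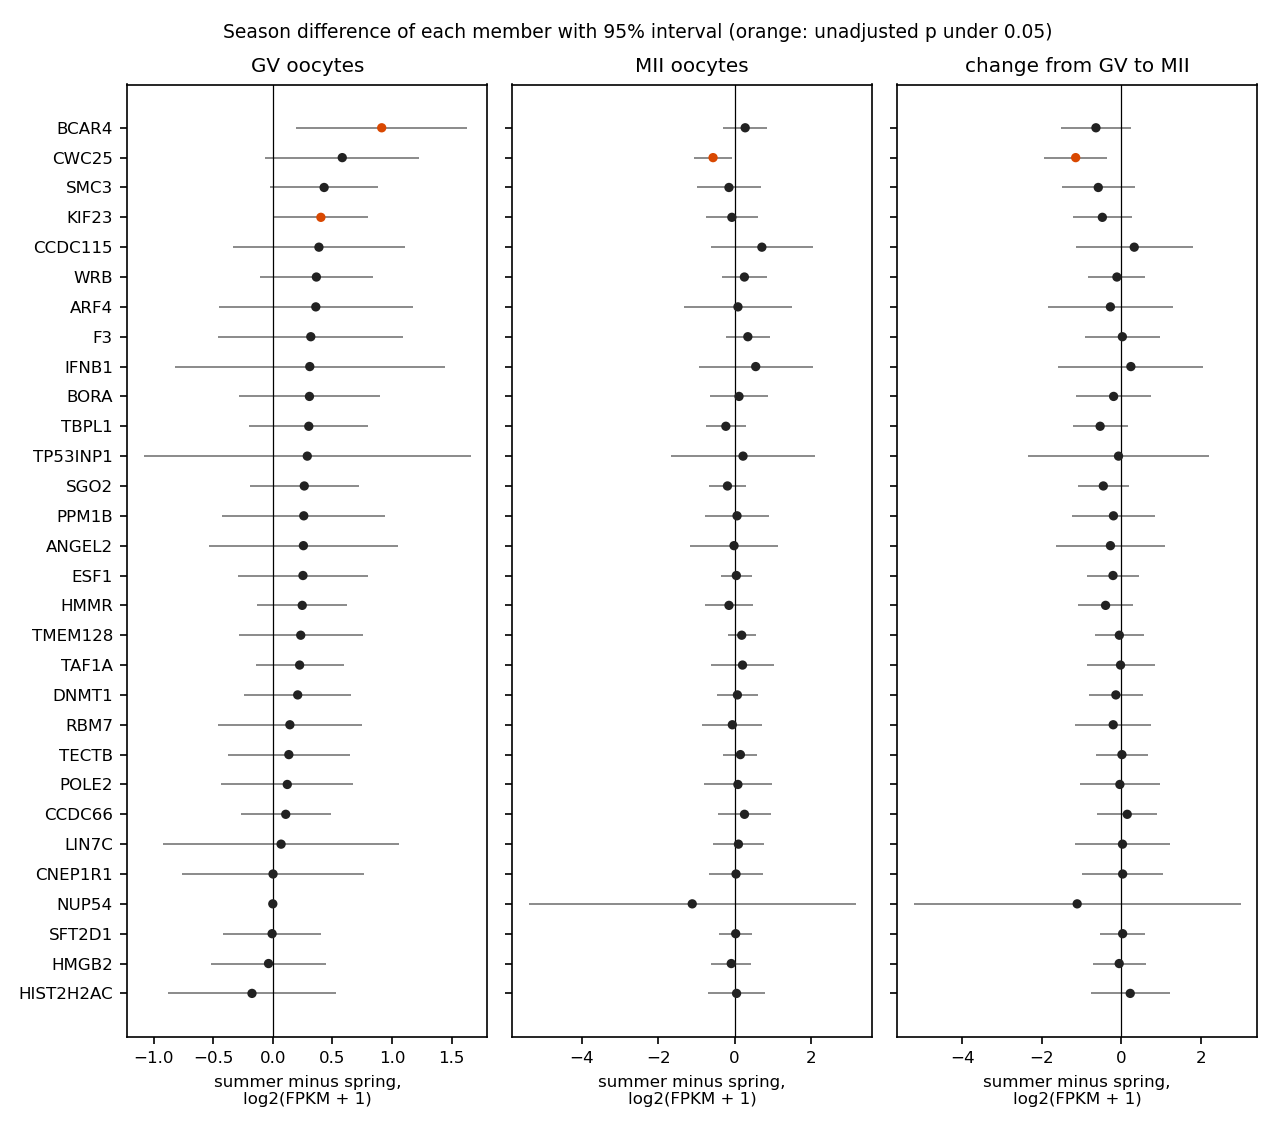
Summer minus spring on the log2(FPKM + 1) scale for each member, in GV oocytes, in MII oocytes and for the change from GV to MII, with 95% intervals from limma and 6 libraries per group. Orange points have an unadjusted p under 0.05 (BCAR4 and KIF23 in GV, CWC25 in MII and in the change), and horizontal scales differ between panels.

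In MII oocytes no member was called either, against 0.042% of all genes. CWC25 was the only member with an unadjusted p under 0.05, against 2.11% of all genes (0.336% higher and 1.77% lower in summer), and none passed the adjustment (0% of all genes). It was lower in summer by the log2 difference of -0.57 (SE 0.23, 95% interval -1.06 to -0.074, limma p = 0.0275, adjusted p = 1, exact permutation p = 0.0411, two-sided). Its spring MII values were 17.5 to 25.2 FPKM and 4 of its 6 summer values were 9.41 to 12.7, with summer replicate 6 at 25.8 above all the others. The limma p of CWC25 at MII rose above 0.05 when any of several single libraries was left out, up to 0.0624 without summer MII replicate 2, where the difference was -0.46. Next in order of p were F3, at 0.34 (SE 0.26, limma p = 0.215, adjusted p = 1, exact permutation p = 0.214), and CCDC115, at 0.71 (SE 0.61, limma p = 0.269, adjusted p = 1, exact permutation p = 0.307), whose intervals of -0.23 to 0.92 and -0.62 to 2.05 leave room for differences of either sign. Summer was higher in 20 of 30 members, against 40.5% of all genes (58.3% were lower), but in 15 of 30 without the 3 shallow libraries, where all genes stood at 50.9%, and in 24 with median-of-ratios scaling, where all genes stood at 53.2% and the rows with an MII mean of at least 5 at 62.1%. The median difference of the members was 0.066, and of all genes -0.011.

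For the season difference in the GV to MII change 1 member, CWC25, was called, against 0.21% of all genes, and CWC25 was also the only member with an unadjusted p under 0.05, against 1.8% (0.294% with a larger and 1.5% with a smaller change in summer). No member and no gene of the table passed the adjustment (0%). The rise of CWC25 was smaller in summer by the log2 difference of -1.15 (SE 0.38, 95% interval -1.94 to -0.36, limma p = 0.0063, adjusted p = 1, with no permutation test run for the change), made up of a GV value higher in summer by 0.58 (SE 0.30, limma p = 0.0741, adjusted p = 1) and the lower MII value above. Without spring GV replicate 3, where CWC25 was lowest at 1.31 FPKM, the difference was -0.91 and no longer passed a fold of 2. TBPL1 (-0.53, SE 0.34) and BCAR4 (-0.64, SE 0.43) came next, each with a limma adjusted p = 1. CWC25, TBPL1 and BCAR4 did not meet the rule with the summer libraries alone. The change was larger in summer in 9 of 30 members, against 42.1% of all genes (57.9% smaller), with a median of -0.12 against -0.027. The rows with an MII mean of at least 5 were close to the members, with 35.0% larger and a median of -0.13. Over the 14 oocyte markers the median was -0.63, with 3 of them smaller in summer at an unadjusted p under 0.05. That direction depended on the scaling: with median-of-ratios scaling the change was larger in summer in 17 of 30 members (60.7% of all genes and 61.3% of those rows), and the median turned to 0.073.

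The other genes of the same pathways were counted in the 8 lists that hold a member, and no gene of these lists passed the adjustment in any of the season comparisons. In GV oocytes, where 1.21% of all genes were higher and 0.346% lower in summer at an unadjusted p under 0.05, the spindle list had 9 higher (KIF23 included) and 1 lower of 156. The splicing list had 3 higher of 162, the chromatin list 3 of 188, the DNA repair list 4 of 128, the nuclear pore list 2 of 57 and the meiotic kinase list 1 of 97, with 0 lower in each. Transcription had 2 higher and 2 lower of 311, and membrane traffic 2 and 2 of 261.

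In MII oocytes, where 0.336% of all genes were higher and 1.77% lower, the spindle list had 1 higher and 5 lower of 156 and the splicing list 1 higher and 5 lower of 162, CWC25 among the latter. Transcription had 1 higher and 8 lower of 311, DNA repair 1 and 3 of 128 and the meiotic kinases 1 and 2 of 97. Chromatin had 4 lower of 188, membrane traffic 4 lower of 261, each with 0 higher, and the nuclear pore list had 0 of 57 either way. For the change, smaller in summer in 1.5% of all genes and larger in 0.294%, the counts were 7 smaller and 1 larger for the spindle, 7 smaller for splicing (CWC25 included), 7 for chromatin, 5 for transcription, 2 for DNA repair, 1 for the nuclear pore and 0 for the meiotic kinases, with 3 smaller and 1 larger for membrane traffic.

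**Figure D4:**
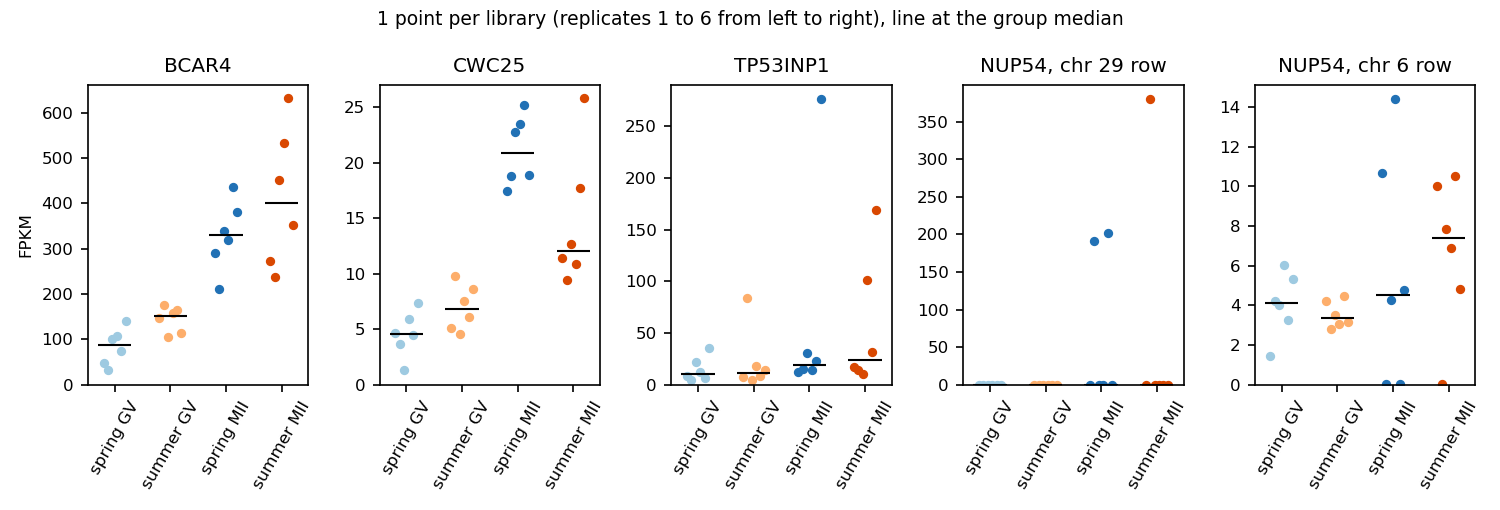
FPKM of BCAR4, CWC25, TP53INP1 and both NUP54 rows in each library, from 0 on linear axes, with replicates 1 to 6 from left to right in each group and a line at the group median. Summer GV values of BCAR4 start at 105 FPKM, spring MII values of CWC25 at 17.5, and the 2 NUP54 rows are never both above the lowest value in 1 library.

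Within MII oocytes the members did not spread alike over the libraries. Summer MII replicate 2 was the highest of the 12 MII libraries for 15 of the 30 members, while it was highest for 16.8% of the 1363 rows with an MII mean of at least 5. The rule used these MII values, so a library high for a gene helped it to become a member. Without this library BORA, CCDC66, DNMT1, ESF1, KIF23, SGO2, TAF1A and WRB no longer met the rule. The 15 members highest there included the 3 members of the spindle list (SMC3, SGO2 and KIF23), and also HMMR, BORA, CCDC66, TBPL1, TAF1A, ARF4 and DNMT1. SMC3 stood at 22.3 FPKM there, KIF23 at 14.6 and CCDC66 at 12.8. The shallow spring MII replicate 6 was lowest for 6 members (ARF4, BORA, CCDC66, HIST2H2AC, IFNB1 and SMC3) and highest for 5 (ANGEL2, LIN7C, PPM1B, TP53INP1 and WRB). Of the members lowest there, only ARF4, BORA, CCDC66 and SMC3 were among the 15. Over the 1363 rows it was highest for 26.9% and lowest for 16.1%. This library had a relative depth of 0.149 and a cumulus marker sum of 167 FPKM, and their part in these values was not tested. The library lowest for most members was summer MII replicate 3, with 9 of 30, against 19.7% of the 1363 rows. In GV oocytes the shallow summer replicate 2 was highest for 13 members, against 31.7% of the 1363 rows.

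**Figure D5:**
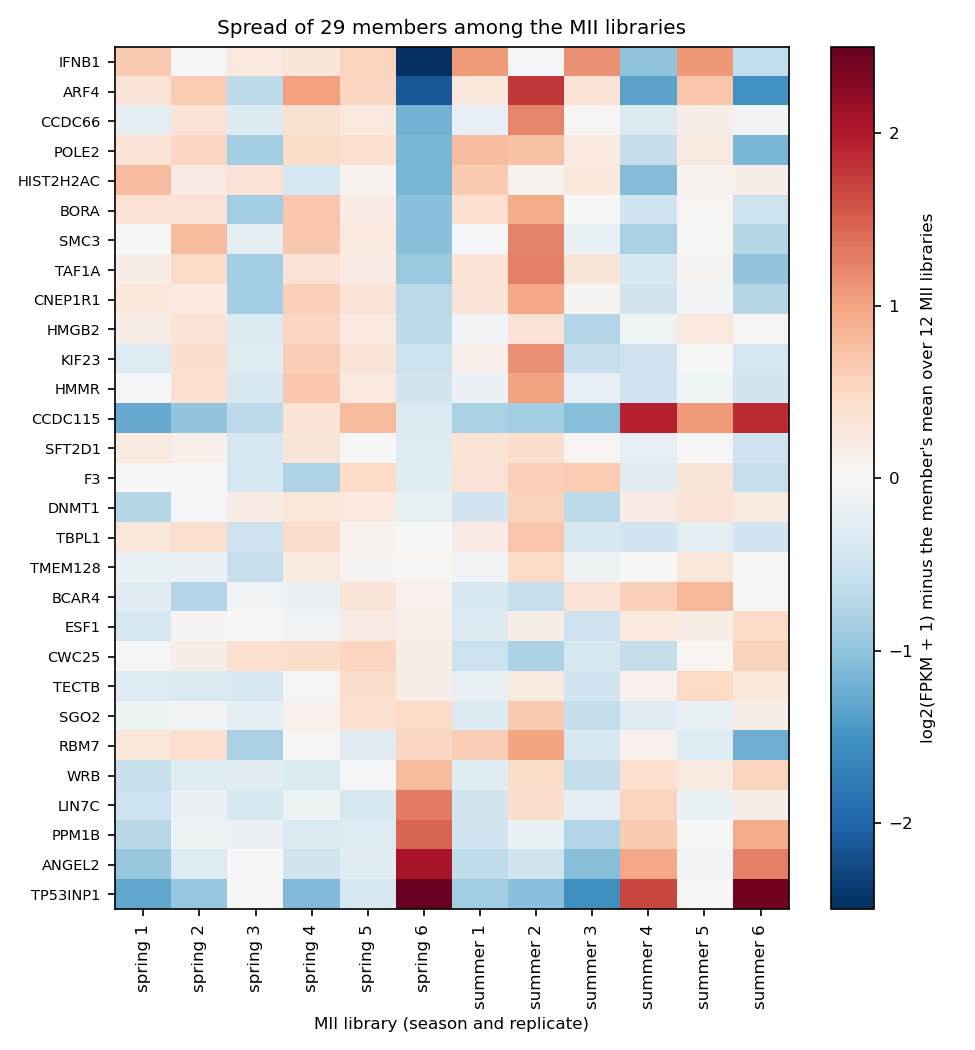
Deviation of 29 members (NUP54 left out) in each of the 12 MII libraries from the member's own MII mean on the log2(FPKM + 1) scale, red above and blue below, limited to 2.5 either way in colour. Rows are ordered by spring MII replicate 6, which runs from the lowest value of IFNB1 to the highest of TP53INP1, and summer MII replicate 2 is the highest library for 14 of the 29.

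Close to the thresholds, ESF1 (ratio 3.00), DNMT1 (3.01) and ANGEL2 (3.03) were just inside, and INTS12 (2.98), CHEK1 (2.98) and PIGW (2.97) just outside. By MII mean, ESF1 (5.24 FPKM), SGO2 (5.29) and CCDC66 (5.36) were just inside, and GPATCH2 (4.78), GTF2A1 (4.34) and CKAP2 (3.87) just outside with ratios over 3. Of the 31 alternative settings under which the rule was applied, DNMT1 was a member in 15, ESF1 in 16 and ANGEL2 in 17, while 12 members passed in all of them. Gene span was not a threshold of the rule. The members had a median span of 16672.5 bp, between 375 for HIST2H2AC and 65945 for ESF1. The 1363 rows with an MII mean of at least 5 had a median of 6670 bp. Those rows still hold the families that were left out of the members by name, so the choice by name may contribute to this contrast. The spans without these families were not compared. The members lay on 20 chromosomes, and 18 of the 30 were on the plus strand.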

How the data were processed

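Messenger RNA of 24 pools of oocytes was amplified with a Smart-seq2 kit, made into Nextera XT libraries and sequenced in pairs. The authors trimmed the reads, aligned them with STAR 2.5.3a to the bovine assembly UMD3.1.1 (UMD3.1 in the submitters' processing notes) and deposited FPKM values for 11306 rows. The equal total and the lowest value of 0.01 were read from the values, since no source used here names those steps. Their differential expression test, the GSA algorithm of Partek Flow, was not used here.

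Members were found from the deposited FPKM by the 2 thresholds of the rule. For the season, log2(FPKM + 1) of the 9526 genes over 0.1 in at least 1 library was tested with limma 3.58.1 in R 4.3.3, the spread moderated along mean expression. P-values were adjusted over all genes by the Benjamini-Hochberg method, and single members also had an exact permutation test over 924 assignments of 6 and 6 libraries. Groups and replicate numbers came from the sample labels, and p-values measure the spread between pools of 1 animal each. Since 1 herd was sampled repeatedly and the labels do not tie pools to cows, libraries of different groups may share an animal, which the fits do not model. In data simulated for 9526 genes, a log2 change of 2 was recovered for 194 of 200 genes in the GV comparison and for 197 of 200 in the MII comparison, with 49 and 29 unchanged genes called. At an adjusted p under 0.05 it was recovered for 154 and 160. The real comparisons called 3 and 4 genes in all. Changes were placed only in genes with a mean log2(FPKM + 1) above the log2 of 6. Many members lay lower in GV oocytes, and the recovery does not describe them. The simulated noise was normal and independent between genes. Its 49 and 29 calls of unchanged genes exceed the 3 and 4 calls of the real data. The recovery therefore does not measure the sensitivity of the real tests. Python 3.11.15 (numpy 2.4.6, pandas 2.3.3) served to read relative depth from the steps between low values, a method tested on 24 simulated libraries, all recovered within 10%. Absolute depth per value is unknown, so no counting error is given. Figures were drawn with matplotlib 3.10.9.

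The members, the 16 functional lists, the 3 marker lists and the tests were chosen with earlier results of these data known. Values are given for the 10 members with the highest MII mean, the 10 with the highest ratio, up to 3 members per list, the 3 with the smallest p in each season comparison and those at the thresholds. Alternatives were a pseudocount of 0.1, other filters (none, or a mean of at least 1), quantile and median-of-ratios scaling, the replicate number as a block, 1 fit over all groups, no mean-dependent moderation, adjusted p, leaving out each library in turn, and leaving out the 3 libraries with the lowest mapping rates. These 3 are also the shallowest. The rule was also applied to medians, to each season alone and after subtracting the lowest value.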

Additional observations from a re-analysis of the deposited data

Results flagged for a closer look

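In 118 groups of 6 values, 21 single libraries, or 17.8%, stood so far from the other 5 that the gap took up most of the range of their group. The cutoff is one that about 1 in 20 groups of normally distributed values would pass. It was applied to FPKM without a log scale, and the share over all genes was not counted. The excess is therefore not known to be particular to the members. Of these, 16 were in the 3 shallow libraries and 5 in summer MII replicate 2, they came from 14 members, and all of them were high. Their part in the levels of the members was not tested.

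In summer GV replicate 2, with a relative depth of 0.394, SMC3 stood at 3.91 FPKM, PPM1B at 5.73, LIN7C at 14.6, SGO2 at 3.63, TP53INP1 at 83.8, WRB at 4.57, ANGEL2 at 9.45 and ESF1 at 4.12. In spring MII replicate 6, with a relative depth of 0.149, the high members were PPM1B at 17.1 FPKM, LIN7C at 46.7, TP53INP1 at 276.7, WRB at 10.99 and ANGEL2 at 27.1. Spring GV replicate 6, the shallowest library at 0.0567, was high for LIN7C at 15.4 FPKM, F3 at 51.3 and DNMT1 at 2.91. LIN7C was thus set apart in all 3 shallow libraries, and PPM1B, TP53INP1, WRB and ANGEL2 in both summer GV replicate 2 and spring MII replicate 6.

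Summer MII replicate 2 had a relative depth of 0.806 and the lowest cumulus marker sum of the 24 libraries, 27.7 FPKM. It was high for SMC3 at 22.3 FPKM, HMMR at 14.6, CCDC66 at 12.8, KIF23 at 14.6 and the chromosome 29 row of NUP54 at 380.7.

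One member differed between the seasons in its change from GV to MII by the test of that difference, CWC25, at -1.15 on the log2 scale (limma adjusted p = 1). Its GV level was higher and its MII level lower in summer than in spring, and the difference did not pass the adjustment over all genes.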

How the results depend on the processing

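The number of rows that met the rule moved most. It was 30 as reported, 48 with medians in place of means, 103 after quantile normalization, 74 without the 3 shallow libraries and 79 with spring alone, and between 22 (without spring GV replicate 1) and 70 (without summer GV replicate 2) when each library was left out in turn. With summer alone it was 24 and with median-of-ratios scaling 34. Of the 30 members, 20 were among the 48, 30 among the 103, 30 among the 74 and 28 among the 79, and 17 stayed members whichever library was left out. The median ratio was 4.03 after quantile normalization and 3.18 to 3.43 with a library left out. In GV oocytes 1 member (BCAR4) was called after quantile normalization (1.02) and 1 (BCAR4) without the 3 shallow libraries (1.03), with 0 to 1 over single libraries left out. In MII oocytes the count stayed at 0 under each of the alternatives run. The season difference in the change had 0 called with median-of-ratios scaling (CWC25 at -0.92), 0 with adjusted p and 0 to 1 with a library left out (0 without spring GV replicate 3). Why these counts moved was not tested. The median difference of the members kept its sign in GV oocytes (0.18 to 0.31 with a library left out), but not in MII oocytes (-0.032 to 0.14), and the median of the change (-0.24 to -0.036) turned from -0.12 to 0.073 with median-of-ratios scaling.

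The replicate numbers are shared by the groups, and deviations of same-numbered libraries correlated over 0.1 in 1 of 6 pairs between the GV groups (median r -0.0049), 4 of 6 between the MII groups (0.55), 3 of 6 between the spring stages (0.089) and 4 of 6 between the summer stages (0.29). Libraries correlated best with their own number in 0, 4, 2 and 3 of 6. Since no comparison had all pairs over 0.1, the main fits did not use the numbers as a pairing. Whether same-numbered libraries belong together, above all those of the MII groups, was not tested. With the replicate block 0 members were called in GV, 0 in MII and 1, CWC25 at -1.15, in the change, as without it. The limma p did move with the block. At MII it was 0.0863 for CCDC115 (0.269 without), 0.128 for F3 (0.215) and 0.0296 for CWC25 (0.0275). In GV oocytes it was 0.0847 for KIF23 (0.0447 without) and 0.0419 for BCAR4 (0.0167). Of depth, the table shows that IFNB1 was at the lowest value in exactly the 3 shallow libraries.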
